A study of Mus musculus with 5 samples.

Results

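The cells described here are the T cells found among spleen cells of C57BL/6 mice that carried CMM, a GFP-marked acute myeloid leukaemia with inv(16) given intravenously. The mice received PBS (1 library) or the CpG-STAT3dODN decoy (4 libraries, Decoy 2, Decoy 3, Decoy 5 and Decoy 6) intravenously 3 times, every other day. The decoy joins a CpG oligonucleotide, a ligand of the endosomal receptor Tlr9, to a short DNA that binds the transcription factor Stat3, so no group separates these components. The sort was for GFP+c-Kit+ leukaemic cells, per the labels, and how T cells came to be in these libraries was not tested, so their shares may depend on the gate. No deposited annotation named cell types, and these were rebuilt from counts. A T cell was a barcode with at least 500 genes, at least 1000 UMIs (counted RNA molecules), at most 10% mitochondrial UMIs and at least 2 UMIs of Cd3d, Cd3e and Cd3g together. Barcodes with 2 or more UMIs of Cd79a and Ms4a1 (B cells), with 10 or more C1q UMIs per 10000 (macrophages) or with 5 or more UMIs of Cpa3, Ms4a2 and Fcer1a per 10000 (the leukaemic cells) were left out. The rule kept 478 of 32240 cells: 64 in PBS, 67 in Decoy 2, 77 in Decoy 3, 176 in Decoy 5 and 94 in Decoy 6. Cd4 cells (a Cd4 UMI and no Cd8a UMI) numbered 110 and Cd8 cells (a Cd8a UMI and no Cd4 UMI) 241, while 5 cells held both and 122 held neither.

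T cells recognise peptides held by MHC molecules through a T cell receptor, which signals through the Cd3 chains. Cd8 cells read MHC class I and kill target cells with perforin and granzymes, and Cd4 cells read MHC class II and help or, as Foxp3+ regulatory cells, restrain other cells. Type I interferon, which CpG-sensing cells can release, and interferon gamma, which T cells make, raise antiviral genes, the MHC class I pathway and, in mouse lymphocytes, the surface protein Ly6a (Sca-1).

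The receptor genes that the rule did not use were present. A UMI of Trac, the alpha chain constant region, was found in 55 of 64 PBS T cells and in 85.7 to 94.0% of T cells in the 4 Decoy libraries, against 0.481 to 2.94% of B cells. Only 15 of the 478 cells held no UMI of Trac, Trbc1 or Trbc2. Of genes of immature T cells, Rag1 and Rag2 had UMIs in 0 T cells of every library, Dntt in 1 T cell each of Decoy 3, 5 and 6 and Ptcra in 1 each of Decoy 2, 5 and 6, with exact (Clopper-Pearson) 95% upper limits for Rag1 of 2.07% in Decoy 5 to 5.60% in PBS. These intervals cover counting error only. Kit, the gene of the sorted surface protein, had a UMI in 9.38% of PBS T cells and in 2.13 to 5.97% of Decoy T cells, against 66.5% of the leukaemic cells with mast cell genes in PBS. At the edge of the rule lay 17 T cells with exactly 2 Cd3 UMIs, of which 4 held a receptor constant UMI (2 in PBS and 2 in Decoy 6). Just outside it lay 123 cells with 1 Cd3 UMI, and a receptor constant UMI was found in 0 of 29 of them in PBS, 2 of 23 in Decoy 2, 3 of 17 in Decoy 3, 1 of 39 in Decoy 5 and 2 of 15 in Decoy 6.

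RNA of other cells differed between the libraries in these T cells. The summed level of 7 erythroid markers was 12295 CPM (counts scaled to a common library total) in PBS T cells and 219 to 939 CPM in Decoy T cells, and an Hbb-bs UMI was found in 73.4% of PBS T cells against 10.4 to 22.1%. In PBS, 96.8% of those erythroid UMIs lay in 5 cells. The 6 leukaemic markers summed to 335 CPM in PBS and 7.48 to 122 CPM in Decoy, and the 8 B cell markers to 167 CPM in PBS and 177 to 3568 CPM in Decoy. In Decoy 6, 96.2% of the B cell marker UMIs lay in 5 cells. In PBS T cells the B cell marker Ms4a1 and the plasma cell markers Jchain and Derl3 were at 0. The 6 neutrophil markers ranged from 5020 CPM in Decoy 6 to 30305 CPM in Decoy 5, with 17173 CPM in PBS, and the 5 cells with most of them held at least 97.5% of their UMIs in each library. Single cells also weighed heavily: 1 of the 21 PBS Cd8 cells held 28.7% of that group's UMIs, against 9.05 to 14.7% for the top Cd8 cell of each Decoy library. Y-linked UMIs were found in 39 of 64 PBS T cells and in 43, 60, 126 and 70 T cells of Decoy 2, 3, 5 and 6, and Xist, which 98.8% of the leukaemic cells with mast genes in PBS carried, in 14, 8, 0, 0 and 3 T cells in the same order. No barcode shared between libraries was a T cell in both, and 3 of 107 shared kept barcodes were a T cell in 1 of them. The part of this RNA in the differences reported here was not tested beyond the alternatives named beside them.

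The T cells made up a larger share of the sorted material in every Decoy library than in PBS. They were 0.372% of kept cells in PBS, 1.07% in Decoy 2, 3.97% in Decoy 3, 4.88% in Decoy 5 and 2.92% in Decoy 6, a Decoy mean of 3.21% ± 1.63 (SD, n = 4). The exact permutation test of the difference gave p = 0.2, two-sided, which is the smallest that 1 library against 4 can give. The leukaemic cells with mast genes were 14498 of 17219 kept cells in PBS, 4811 of 6252 in Decoy 2 and 402 of 1941 in Decoy 3. They were 13 of 3607 in Decoy 5 and 1406 of 3221 in Decoy 6, so the denominator moved as well. Without those cells in the denominator T cells made up 2.35% in PBS and 4.65 to 5.18% in Decoy (exact permutation p = 0.2). Set against B cells the order was mixed: T cells were 23.5% of T and B cells in PBS, 28.3% in Decoy 2, 15.1% in Decoy 3, 11.4% in Decoy 5 and 15.3% in Decoy 6. PBS lay inside the range of the Decoy libraries (exact permutation p = 0.6).

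**Figure D1:**
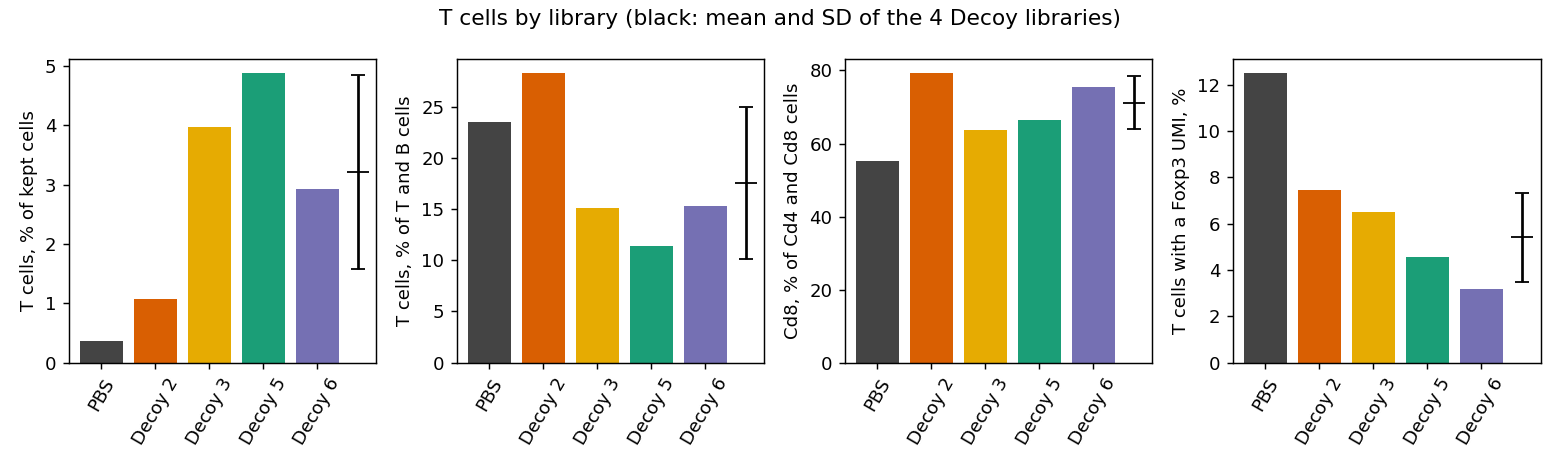
Each bar is 1 share in percent in the PBS library or 1 of the 4 Decoy libraries, and the black mark is the mean and SD of the Decoy libraries (n = 4). The share of kept cells is lowest in PBS, at 0.372%, the share of T and B cells in PBS lies inside the Decoy range, the Cd8 share is lowest in PBS and the Foxp3 share is highest there.

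Within the T cells, Cd8 cells were 55.3% of Cd4 and Cd8 cells in PBS and 79.3, 63.8, 66.4 and 75.4% in Decoy 2, 3, 5 and 6, a mean of 71.2% ± 7.32 (SD, n = 4). All 4 Decoy libraries lay above PBS (exact permutation p = 0.2, two-sided). With mitochondrial UMIs limited to 5% the PBS value was 69.2%, inside the Decoy range of 66.0 to 82.4%. Foxp3, the factor that defines regulatory T cells, had a UMI in 8 of 64 PBS T cells (12.5%), and in 7.46, 6.49, 4.55 and 3.19% of the T cells of Decoy 2, 3, 5 and 6. PBS was again outside the Decoy range (exact permutation p = 0.2), and 0 B cells held a Foxp3 UMI. Of the 8 Foxp3+ PBS cells, 2 fell among Cd4 cells and 6 among cells with neither coreceptor UMI. Cells with neither coreceptor made up 40.6% of PBS T cells and 11.9 to 27.3% of Decoy T cells, and in PBS they were shallow, with a median of 3786 UMIs against 11752 for PBS Cd8 cells. Most of them carried alpha-beta receptor RNA: 22 of 26 in PBS, 6 of 8 in Decoy 2, 15 of 17 in Decoy 3, 43 of 48 in Decoy 5 and 21 of 23 in Decoy 6. The gamma-delta constant gene Trdc had a UMI in 1 of 26, 2 of 8, 0 of 17, 5 of 48 and 3 of 23 in the same order.

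The Cd8 cells of every library, PBS included, carried the RNA of cytotoxic effector cells. Nkg7, a protein of cytotoxic granules, had a UMI in 100% of PBS Cd8 cells and in 97.3 to 98.1% of Decoy Cd8 cells, against 25.0 to 66.7% of Cd4 cells and 1.62 to 2.88% of B cells. It was also found in 28.9 to 33.0% of the leukaemic cells with mast genes in PBS and Decoy 2, 3 and 6. In Decoy 5, which held only 13 such cells, it was 69.2%. Gzmb (granzyme B) was found in 76.2% of PBS Cd8 cells and 74.1 to 80.8% of Decoy Cd8 cells, and Prf1 (perforin) in 76.2% and 67.6 to 82.6%. In Cd4 cells Gzmb was found in 6.98 to 29.4% over the 5 libraries. The chemokine gene Ccl5 was found in 90.5% of PBS Cd8 cells and 78.4 to 87.1% of Decoy Cd8 cells, and Ifng, the interferon gamma gene, in 52.4% and 60 to 67.6%. Receptors that restrain T cells were frequent too: Pdcd1 (PD-1) had a UMI in 76.2% of PBS Cd8 cells and 62.4 to 73.9% in Decoy, and Lag3 in 81.0% and 69.4 to 82.6%. Tox and Eomes, nuclear factors of chronically stimulated and effector Cd8 cells, were found in 81.2 to 89.2% and 57.1 to 73.9% of Cd8 cells over the 5 libraries. Cx3cr1, a marker of terminal effector cells, was found in 25.9 to 43.5%. Klrg1, another, was found in 2.35 to 10.8% of Cd8 cells. It was also found in 3.49 to 6.15% of the leukaemic cells with mast genes in PBS and Decoy 2, 3 and 6, in 7.69% of the 13 in Decoy 5, and in 0 to 0.146% of B cells. How much of the Klrg1 in Cd8 cells is background was not tested.

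Some of these genes were also frequent in Cd4 cells. Tox was found in 58.1 to 100% of Cd4 cells over the 5 libraries, highest in Decoy 2, where it exceeded the 87.0% of Cd8 cells, and Pdcd1 in 25.0 to 58.8%. Ifng had a UMI in 18.6 to 41.2% of Cd4 cells, yet its level scaled by total counts was higher in Cd4 than in Cd8 cells in every library but Decoy 2 (PBS 586 against 107 CPM). Those Cd4 sums rest on few cells, and in PBS 1 cell held 43.4% of the UMIs. After thinning to 2000 UMIs a cell Ifng was found in 0 to 31.25% of Cd4 and 23.8 to 42.2% of Cd8 cells. That share was lower in Cd4 than in Cd8 cells in every library but Decoy 6. Other genes were more frequent in Cd4 cells. Icos, a co-stimulatory receptor, was found in 41.2 to 66.7% of Cd4 cells and 26.9 to 45.7% of Cd8 cells over the 5 libraries, and Tcf7, a factor of naive and memory T cells, in 35.3 to 60.5% against 14.3 to 23.5%. Cd40lg, the signal of helper cells to B cells, had a UMI in 11.8% of PBS Cd4 cells and in 50, 61.9, 30.2 and 58.8% of Cd4 cells of Decoy 2, 3, 5 and 6, against 0 to 2.17% of Cd8 cells. Tnfrsf4 (OX40) was found in 41.7 to 71.4% of Cd4 and 7.69 to 37.0% of Cd8 cells. These subset differences are descriptions of cells chosen by Cd4 and Cd8a, at unequal depth, and the B cell shares of Icos, Tcf7 and Cd40lg stayed at or below 0.588%. Thinned to 2000 UMIs a cell, Gzmb was found in 52.4 to 68.6% of Cd8 cells and 4.76 to 18.8% of Cd4 cells, and Tcf7 in 5.88 to 10.7% and 12.5 to 58.3%.

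Many of the Cd8 cells carried proliferation genes in all libraries. At least 2 UMIs of Mki67 and Top2a together, 2 genes of dividing cells, were found in 10 of 21 PBS Cd8 cells (47.6%) and in 63.0, 51.4, 51.8 and 53.8% of Cd8 cells of Decoy 2, 3, 5 and 6 (mean 55.0% ± 5.47, SD, n = 4). The difference had an exact permutation p of 0.4. In Cd4 cells it was found in 17.6% (PBS) and 8.33 to 41.2% (Decoy). Over all T cells it was 26.6% in PBS and 35.2 to 50.7% in Decoy (exact permutation p = 0.2), and in B cells 12.5% in PBS and 18.6 to 34.7% in Decoy. Cells above that mark were deeper, with a median of 21950 UMIs in PBS Cd8 cells against 10775 for the others, so depth moved with this share. Mki67 alone was found in 42.9% of PBS Cd8 cells and 40.5 to 56.5% of Decoy Cd8 cells, and after thinning to 2000 UMIs a cell in 33.3% and 13.9 to 33.3%. Top2a was found in 57.1% and 59.5 to 69.6%, and after thinning in 33.3% and 22.2 to 46.7%. After thinning PBS lay within the Decoy range for both genes.

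**Figure D2:**
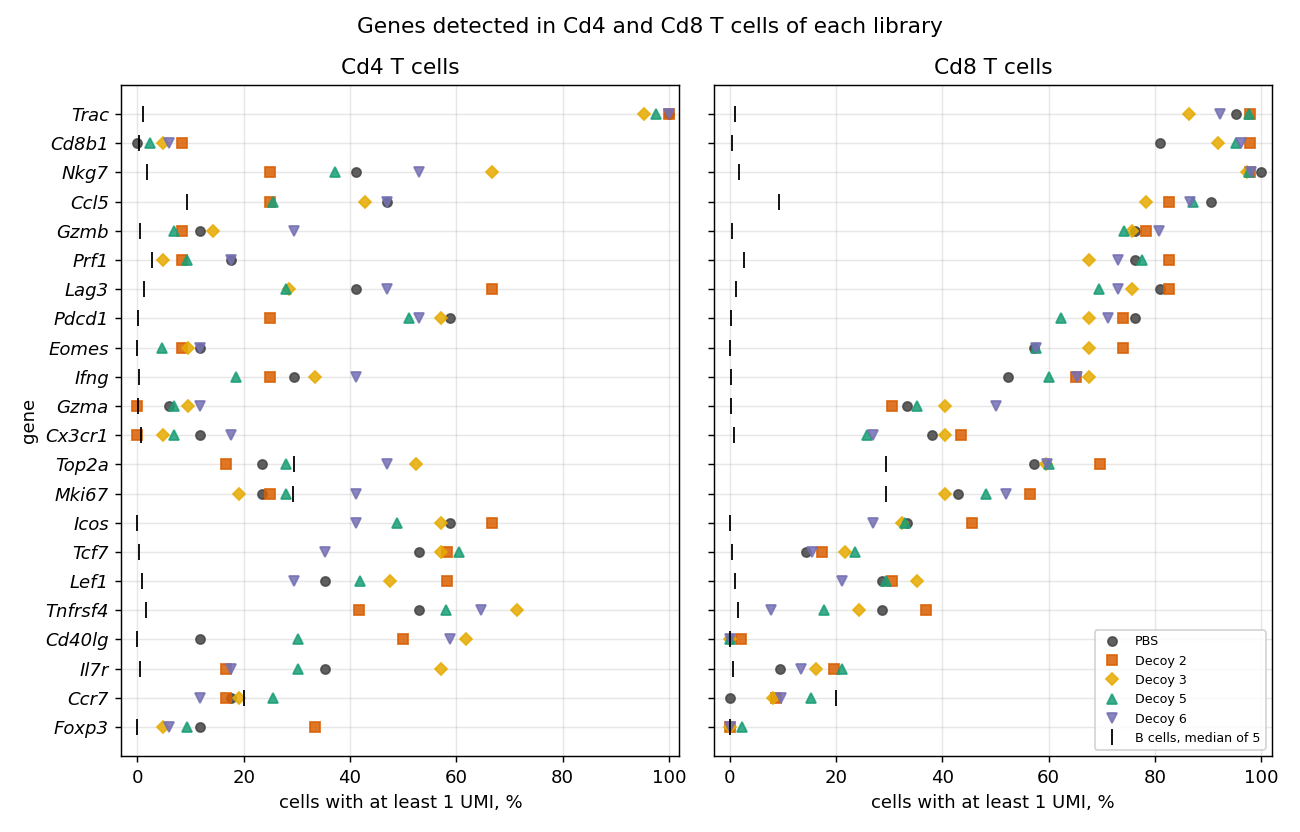
Each point is the percentage of Cd4 T cells (left) or Cd8 T cells (right) of 1 library with at least 1 UMI of the gene on the vertical axis, and the black tick is the median over the 5 libraries for B cells. Nkg7, Gzmb and Prf1 sit between 67.6 and 100% in Cd8 cells of all libraries, and Cd40lg is at or under 2.17% there.

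Decoy and PBS were then compared gene by gene in the Cd8 cells, whose counts were summed per library (21 PBS cells and 37 to 85 Decoy cells). The question was which genes of the T cells differed after the decoy. With 1 PBS library the test takes the spread between the 4 Decoy libraries for both groups, and treatment cannot be told apart from what is peculiar to the PBS library. The labels do not say that the libraries came from separate mice, so a p-value here reflects library-to-library spread, which may be technical. Of 7897 genes tested, edgeR's quasi-likelihood test called 34 at a Benjamini-Hochberg adjusted p under 0.05, which is 0.431% of them (23 higher, 0.291%, and 11 lower, 0.139%, in Decoy). Leaving out Decoy 3 left 5 calls, Ly6a, S100a6, Cd74, H2-Aa and H2-Ab1, while the other alternatives gave 17 to 172.

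Ly6a was the clearest of them. Its level was 108 CPM in PBS Cd8 cells and 947, 1146, 1207 and 1104 CPM in Decoy 2, 3, 5 and 6 (mean 1101 ± 111, SD, n = 4). All 4 Decoy libraries lay far above PBS and close to each other. Ly6a (chr15:74994877-74998031, mm10) rose by a log2 fold change of 3.35 (SE 0.21, edgeR adjusted p = 0.000389), and it was called in 10 of 10 alternatives, with log2 values of 2.66 to 3.43. The difference was one of cells as well as of level: 8 of 21 PBS Cd8 cells held a Ly6a UMI, against 44 of 46, 36 of 37, 83 of 85 and 48 of 52 in the Decoy libraries. After thinning each cell to 2000 UMIs the shares were 14.3% and 68.6 to 78.6%. The PBS Cd4 cells did not share the low level, since 94.1% of them held a Ly6a UMI and 90.7 to 100% did in Decoy. Scaled by total counts alone, Cd4 cells stood at 1419 CPM in PBS and 1548 to 2486 CPM in Decoy. Whether the effect differs between Cd4 and Cd8 cells was not tested, because the 17 PBS Cd4 cells were under the minimum of 20 set for a fit.

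S100a6, S100a4 and Cd2 were also called higher. S100a6, a calcium-binding protein of activated and memory T cells, was at 309 CPM in PBS and 1501, 1512, 1333 and 1540 CPM in Decoy 2, 3, 5 and 6. It rose by a log2 fold change of 2.25 (SE 0.16, edgeR adjusted p = 0.000533), again in 10 of 10 alternatives. S100a4 was at 311 CPM in PBS and 759 to 1211 CPM in Decoy (edgeR adjusted p = 0.0419), while 71.4% of PBS and 61.2 to 73.9% of Decoy Cd8 cells held a UMI (19.0% and 46.4 to 55.6% after thinning). Cd2, an adhesion receptor of T cells, went from 197 CPM in PBS to 439, 456, 446 and 447 CPM, with a log2 fold change of 1.18 (SE 0.17, edgeR adjusted p = 0.0375). The LIM protein gene Crip1 stood at 704 CPM against 1350 to 1648 CPM, and the membrane protein gene Ms4a6b at 184 CPM against 400 to 493 CPM (edgeR adjusted p = 0.0375 for both). Cd8b1, the beta chain of the coreceptor, rose from 276 CPM to 552 to 671 CPM (edgeR adjusted p = 0.0424), in cells picked by its partner Cd8a. S100a4, Crip1, Ms4a6b, Cd8b1 and Clec2d were called but lay outside the naming rule and were chosen after their values were seen.

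Interferon-stimulated genes were shifted upward as a group in Cd8 cells, although few passed the test one by one. Of the 48 genes of the type I interferon list 40 were tested, and 4 were called higher (among them Ly6a, Irf7 and Slfn1), against 0.291% of all genes. A positive log2 fold change was found for 36 of the 40, against 4056 of all 7897. The median was 1.10 against 0.02 for all genes tested. Unadjusted edgeR p-values under 0.05 with a higher level were reached by 17 of the 40, against 7.48% of all genes, and genes with all 4 Decoy libraries above PBS were 28.4%, against 33 of the 40 here. Of 30 interferon gamma genes 27 were tested. Called higher were 2 (among them Ifi47), against 0.291% of all genes, 26 were positive, against 4056 of all 7897, and the median was 1.00. Irf7, which amplifies type I interferon, had 1 UMI in PBS Cd8 cells and 55, 25, 96 and 32 UMIs in the Decoy libraries, in 1 of 21 cells against 29.7 to 34.8% of cells (edgeR adjusted p = 0.0445). Ifi47, an immunity-related GTPase, was at 42.6 CPM against 141 to 197 CPM (edgeR adjusted p = 0.0419). Slfn1, a Schlafen gene of T cells, had 4 UMIs in PBS, all in 1 cell, and 27 to 74 in Decoy. The textbook markers Isg15, Ifit1 and Bst2 did not pass: Isg15 was at 26.9 CPM in PBS and 37.1 to 74.3 CPM in Decoy (edgeR adjusted p = 0.39), Ifit1 at 2.24 CPM, which was 1 UMI, and 8.29 to 27.1 CPM (edgeR adjusted p = 0.454), and Bst2 at 119 CPM and 116 to 195 CPM (edgeR adjusted p = 0.603).

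The MHC class I pathway stood higher in Cd8 cells and in all T cells. Of its 22 listed genes, all tested, 3 were called higher in Cd8 cells (B2m, H2-K1 and H2-T22), against 0.291% of all genes, and 20 were positive, against 4056 of all 7897. The median log2 fold change was 0.86. In all T cells 7 were called higher, against 0.212% of all genes, 22 were positive, against 4954 of all 9417, and the median was 0.85. The 2 that did not lie above 0 in Cd8 cells were Calr and Pdia3, general chaperones of the endoplasmic reticulum, at log2 values of -0.05 and -0.12. B2m, the light chain of every class I molecule, was at 1398 CPM in PBS Cd8 cells and 2221, 2438, 2493 and 2401 CPM in Decoy 2, 3, 5 and 6, with a log2 fold change of 0.77 (SE 0.12, edgeR adjusted p = 0.0375). H2-K1, a classical heavy chain, was at 1333 CPM against 2114 to 2492 CPM (edgeR adjusted p = 0.0445), and H2-T22, a non-classical one, at 60.5 CPM against 172 to 201 CPM, with a log2 fold change of 1.61 (SE 0.23, edgeR adjusted p = 0.0375). Heavy chain genes of this family are near-identical in places, so reads may have been split between them. Both B2m and H2-K1 lost the call with the highest 5% of UMIs left out (log2 0.60 and 0.62), after thinning, and without Decoy 3 or Decoy 5.

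**Figure D3:**
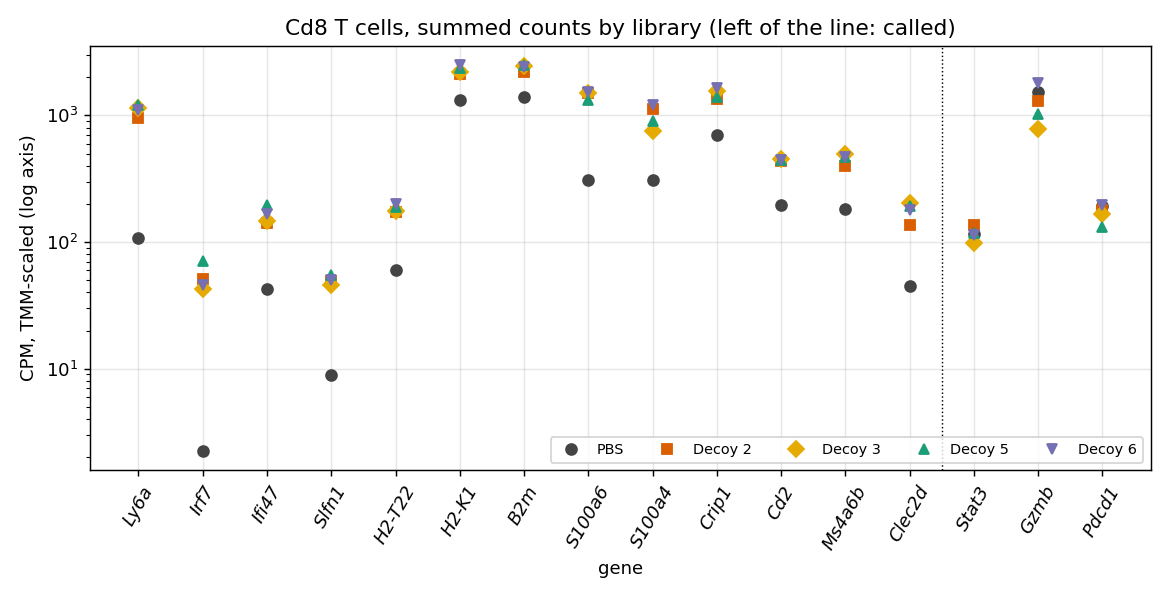
Points give the TMM-scaled CPM, on a log axis, of summed Cd8 T cells in each library for 13 called genes (left of the dotted line) and 3 that were not called. PBS lies below all 4 Decoy libraries for every gene on the left, with the widest gaps for Irf7 (2.24 CPM, 1 UMI) and Ly6a (108 CPM), and inside the Decoy range for Stat3, Gzmb and Pdcd1.

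The DNA upstream of the called genes was read for the core letters of an interferon-stimulated response element, GAAA, any 2 bases and GAAA again, on both strands (TTTC, any 2 bases and TTTC on the other). RefSeq windows of build GRCm38.p6 covered 16 of the 23 genes called higher in Cd8 cells, and the 250 bases before the start held the letters in 3 of their 17 windows, against 2.98% of all 32851 windows. Among the genes called higher over all T cells it was 1 of 18 windows (5.56%). A match describes letters only and is no measure of binding. Ly6a had no window in the table. The 3 stretches, 100 bases each, are printed 5′ to 3′ on the strand of the gene, with the match in capitals, because these genes rose with the interferon lists. The B2m match lies 139 to 130 bases before the start (chr2:122147503-122147602, plus strand), that of Clec2d, a lectin-like ligand of an inhibitory receptor of NK cells, 189 to 180 bases before it (chr6:129180381-129180480, plus strand), and that of H2-T22, read on the opposite strand, 191 to 182 bases before it (chr17:36042879-36042978, minus strand). The far end of the H2-T22 stretch overlaps an exon of the predicted gene Gm6034.
B2m: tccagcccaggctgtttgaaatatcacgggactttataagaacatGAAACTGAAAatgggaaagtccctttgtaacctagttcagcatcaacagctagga
Clec2d: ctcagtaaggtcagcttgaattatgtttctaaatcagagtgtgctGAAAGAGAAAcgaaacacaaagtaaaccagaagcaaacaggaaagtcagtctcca
H2-T22: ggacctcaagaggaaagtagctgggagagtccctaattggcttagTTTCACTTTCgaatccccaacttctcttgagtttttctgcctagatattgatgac
Clec2d itself stood at 44.8 CPM in PBS Cd8 cells and 136, 205, 193 and 180 CPM in Decoy 2, 3, 5 and 6 (log2 fold change 1.99, SE 0.32, edgeR adjusted p = 0.0419).

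None of the effector genes that marked these cells passed the adjusted threshold in Cd8 cells, a count that 0.431% called over all genes would also give. Gzmb was at 1519 CPM in PBS and 1303, 783, 1030 and 1796 CPM in Decoy 2, 3, 5 and 6, a log2 difference of -0.31 (SE 0.34, edgeR adjusted p = 0.78). Gzma was at 903 CPM in PBS and 620 to 1561 CPM in Decoy (edgeR adjusted p = 0.919). Pdcd1 was at 193 CPM against 131 to 196 CPM (edgeR adjusted p = 0.805). For Nkg7 and Ccl5 every Decoy library lay above PBS without passing: Nkg7 at 2034 CPM against 2966 to 3823 CPM (edgeR adjusted p = 0.111), and Ccl5 at 3435 CPM against 6681 to 14170 CPM (edgeR adjusted p = 0.109). Of 23 cytotoxic genes tested in Cd8 cells 0 were called, with 8 at an unadjusted edgeR p under 0.05 (6 higher, against 7.48% of all genes, and 2 lower, against 5.39%) and a median log2 fold change of 0.34. The 30 receptor and proximal signalling genes had 1 call, Cd2, against 0.291% of all genes called higher, and a median of 0.55, against 0.02. Of the 30, 24 lay above PBS in all 4 Decoy libraries, against 28.4% of all genes. Among them Trac was at 426 CPM against 584 to 665 CPM (edgeR adjusted p = 0.218), Trbc1 at 540 against 750 to 954 CPM (0.232), Trbc2 at 1353 against 1442 to 1924 CPM (0.53), Cd247 at 69.5 against 101 to 121 CPM (0.297) and Lck at 173 against 237 to 297 CPM (0.246), where each parenthesis is an edgeR adjusted p.

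The fixed genes of homing, memory and activation did not pass the test in Cd8 cells. Ccr7, a homing receptor of naive and memory cells, had 0 UMIs in PBS Cd8 cells and 6 to 27 in Decoy (edgeR adjusted p = 0.204). Lef1 was at 26.9 CPM against 32.3 to 54.2 CPM, Tcf7 at 22.4 against 24.9 to 52.7 CPM, Il7r at 8.96 against 15.7 to 42.3 CPM, S1pr1 at 15.7 against 21.2 to 41.4 CPM, and Klf2 at 117 against 131 to 173 CPM (edgeR adjusted p of 0.443 to 0.726 for these 5). All 5 were higher in each Decoy library than in PBS. Cd44, an adhesion receptor of activated cells, was at 17.9 CPM in PBS and 47.4 to 89.9 CPM in Decoy (edgeR adjusted p = 0.122). Cd69, Cd28, Icos and Ctla4 had edgeR adjusted p-values of 0.401, 0.331, 0.881 and 0.313. Ly6c2, a relative of Ly6a, was at 309 CPM in PBS and 356 to 863 CPM in Decoy (edgeR adjusted p = 0.465), but 119 of its 138 PBS UMIs lay in 1 cell, and 14.3% of PBS against 37.8 to 56.5% of Decoy Cd8 cells held a UMI.

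Calls among genes of the STAT3 pathway numbered 0 in Cd8 cells and in all T cells. The shares called over all genes, 0.431% and 0.467%, would also give this count, so it says little about the pathway. Stat3 itself was at 117 CPM in PBS Cd8 cells and 137, 98.3, 118 and 114 CPM in Decoy 2, 3, 5 and 6, and PBS lay within that range (log2 difference 0.01, SE 0.24, edgeR adjusted p = 0.99). Of 30 listed pathway and target genes 28 were tested in Cd8 cells, and edgeR called 0, with a median of 0.19. At an unadjusted edgeR p under 0.05 there were 4 higher and 2 lower, against 7.48% and 5.39% of all genes. In all T cells edgeR called 0 of 29, with a median of -0.06. There 3 were higher and 2 lower at an unadjusted edgeR p under 0.05, against 7.28% and 6.13% of all genes. Socs3, the feedback inhibitor that Stat3 induces, was at 22.4 CPM in PBS and 28.8 to 42.8 CPM in Decoy (edgeR adjusted p = 0.574). Bcl3 was at 42.6 CPM against 30.4 to 52.7 CPM (0.96), and the kinase gene Pim1 at 226 CPM against 143 to 211 CPM (0.633), both edgeR adjusted p-values. Of 15 genes of the endosomal Tlr pathway 9 were tested in Cd8 cells and 1 was called, Irf7, which the interferon list also holds.

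In most other lists 0 genes were called in Cd8 cells, a count that 0.431% called over all genes would also give. Such a count says little about a list. Upward shifts were not confined to the interferon and MHC class I lists. In Cd8 cells edgeR called 2 of 20 small ribosomal protein genes higher, against 0.291% of all genes. At an unadjusted edgeR p under 0.05, 12 of the 20 were higher, against 7.48% of all genes, and 2 lower, against 5.39%. It called 0 of 17 naive and recirculating genes, 0 of 20 activation genes, 0 of 12 checkpoint genes, 0 of 17 chemokine receptor and homing genes and 0 of 22 NF-kB genes. Of the 17 naive genes 13 lay above PBS in all 4 Decoy libraries, against 28.4% of all genes, and 1 lay below. Their median log2 fold change was 0.75. In all T cells it called 1 of 17 chemokine receptor and homing genes and Pet100 of 32 respiratory chain genes higher, against 0.212% of all genes. Tnfrsf4 of 24 activation genes was called lower, against 0.255%, and 0 of 14 checkpoint genes were called. Of the 32 respiratory chain genes 27 lay above PBS in all 4 Decoy libraries, against 27.6% of all genes, and 2 lay below.

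**Figure D4:**
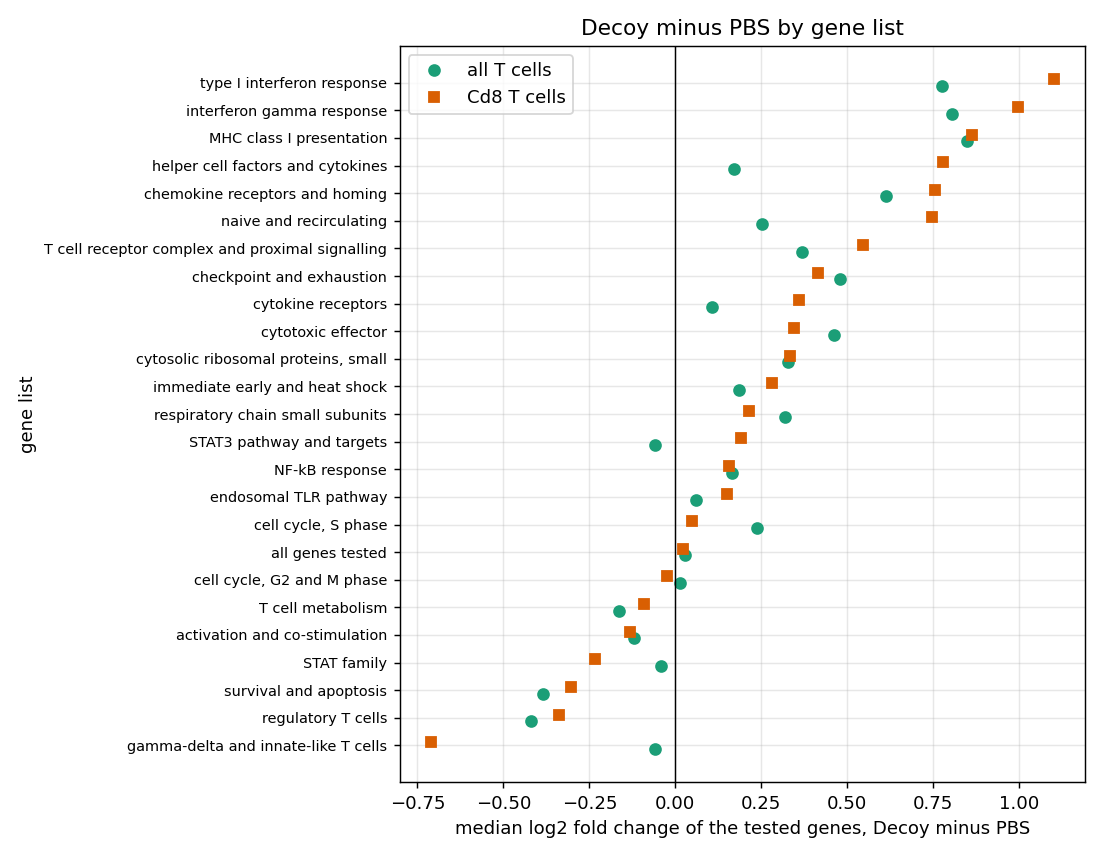
Each point is the median log2 fold change, Decoy minus PBS, of the tested genes of 1 list, for all T cells (circles) and Cd8 T cells (squares). Within each of the 2 cell groups the interferon and MHC class I lists lie highest, at 0.78 to 1.10. All genes tested lie at 0.02 and 0.03, and the STAT3 list lies at -0.06 and 0.19.

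Some calls in Cd8 cells belonged to genes that other cells express strongly. Cd74, H2-Aa, H2-Ab1 and H2-Eb1 are MHC class II genes, and Lst1 is a myeloid gene. Cd74 had 2 UMIs in PBS Cd8 cells and 616, 184, 933 and 304 in Decoy 2, 3, 5 and 6 (edgeR adjusted p = 0.0056), in 2 of 21 cells against 16 of 46, 11 of 37, 29 of 85 and 15 of 52. H2-Aa had 1 UMI in PBS and 88 to 287 in Decoy (edgeR adjusted p = 0.00492), and in Decoy 3 1 cell held 76 of its 88. H2-Ab1 had 1 UMI in PBS and 65 to 291 in Decoy, H2-Eb1 3 and 65 to 254, and Lst1 1 and 61 to 243. At least 99.4% of B cells held Cd74 in each library. Igkc, the immunoglobulin kappa chain gene, moved the same way, in 33.3% of PBS Cd8 cells and 54.3 to 91.9% of Decoy Cd8 cells, as did the neutrophil gene S100a8, in 14.3% and 25.0 to 60.9%. Their part in these calls was not tested. Globin genes led the 11 genes lower in Decoy. Hba-a2 was at 1943 CPM in PBS and 7.37 to 106 CPM in Decoy (edgeR adjusted p = 0.0375), but 842 of its 867 PBS UMIs lay in 1 cell. In PBS 1336 of 1375 Hba-a1, 35 of 53 Il1rl1, 38 of 45 Klra3, 42 of 77 Csf2rb and 33 of 79 Tfrc UMIs lay in 1 cell each. With the highest 5% of UMIs left out, which left 20 PBS Cd8 cells, 68 genes were called, and Ly6a was at a log2 fold change of 3.08 (edgeR adjusted p = 0.000112).

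Over all T cells 44 of 9417 genes were called (0.467%), 20 higher (0.212%) and 24 lower (0.255%) in Decoy. At an unadjusted edgeR p under 0.05, 7.28% were higher and 6.13% lower. A purity filter (a receptor constant UMI and no UMI of Kit or of the B cell, C1q and mast genes of the rule) gave 6 calls in a fit of its own, and of the 26 named calls 22 could be tested there and 0 were kept. The count was 0 when at least 3 Cd3 UMIs were asked for, with 1127 genes at an unadjusted edgeR p under 0.05 and a smallest adjusted p of 0.0518, and 8 without Decoy 3. In this fit the Cd8 share of the cells moved with treatment, from 55.3% to 63.8 to 79.3%. Ccl5 was at 2270 CPM in PBS and 5833, 5458, 6261 and 8649 CPM in Decoy 2, 3, 5 and 6, with a log2 fold change of 1.53 (SE 0.23, edgeR adjusted p = 0.0442). It was called in 8 of 13 alternatives. Ctsw, a protease gene of cytotoxic cells, was at 40.3 CPM against 97.3 to 124 CPM (edgeR adjusted p = 0.0418). Cd8b1 (140 CPM against 335 to 457 CPM), S100a6 (458 against 1118 to 1790 CPM), the lysosomal enzyme gene Ppt1 (19.7 against 53.6 to 69.1 CPM), Hip1 (13.8 against 42.1 to 51.7 CPM) and Pet100 (54.1 against 136 to 178 CPM), an assembly factor of respiratory complex IV, were called higher as well.

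In the same fit the interferon-induced gene Ifi27l2a was at 270 CPM in PBS and 784, 787, 1220 and 1305 CPM in Decoy 2, 3, 5 and 6 (log2 fold change 1.93, SE 0.32, edgeR adjusted p = 0.0484). Ly6a was at 559 CPM against 977 to 1430 CPM and just missed the threshold (edgeR adjusted p = 0.0567). Irf7 (10.8 CPM against 26.4 to 67.4 CPM, adjusted p = 0.172), Ly6c2 (201 against 373 to 706 CPM, adjusted p = 0.109) and Ifit3 (1 UMI against 4 to 31, adjusted p = 0.34) did not pass in edgeR. The class I calls were B2m (1329 against 2185 to 2472 CPM), H2-K1 (1384 against 2128 to 2431 CPM, outside the naming rule), H2-Q6 (45.3 against 98.1 to 125 CPM), H2-Q7 (427 against 792 to 1045 CPM), the peptide transporter gene Tap1 (67.9 against 137 to 170 CPM) and the immunoproteasome subunits Psmb8 (536 against 934 to 1111 CPM) and Psmb9 (219 against 373 to 419 CPM). Their log2 fold changes ran from 0.72 for H2-K1 to 1.34 for H2-Q6. The ribosomal protein genes Rps27 (2207 against 3611 to 4360 CPM) and Rpl39 (3492 against 5037 to 5777 CPM) were called too. They were 2 of 20 on their list, against 0.212% of all genes called higher.

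Genes of regulatory T cells were mixed, with 1 call. Foxp3 (chrX:7573644-7595245) was at 33.5 CPM in PBS and 9.66, 9.06, 10.8 and 4.77 CPM in Decoy 2, 3, 5 and 6, from 34 UMIs in PBS and 6 to 24 in Decoy. All Decoy libraries lay below PBS (log2 difference -1.92, SE 0.41, edgeR adjusted p = 0.0858), and 1 of 13 alternatives called it. Tnfrsf4, which regulatory and activated Cd4 cells carry, fell from 227 CPM to 120, 114, 103 and 91.4 CPM (log2 fold change -1.09, SE 0.17, edgeR adjusted p = 0.0442). Il2ra, the high-affinity interleukin-2 receptor, was at 28.5 CPM against 2.23 to 18.3 CPM (edgeR adjusted p = 0.4), and Il7r at 92.5 CPM against 22.3 to 69.2 CPM (edgeR adjusted p = 0.424). Of 13 regulatory genes tested 1 was called lower, against 0.255% of all genes, and 8 were negative, against 4463 of all 9417. The median was -0.42, and at an unadjusted edgeR p under 0.05 there were 5 lower and 2 higher. Cd4 cells were 26.6% of T cells in PBS and 17.9 to 27.3% in Decoy, and among them Foxp3 had a UMI in 2 of 17 in PBS, 4 of 12 in Decoy 2, 1 of 21 in Decoy 3, 4 of 43 in Decoy 5 and 1 of 17 in Decoy 6. Within Cd4 cells the Foxp3 share of Decoy 2 thus lay above PBS and the other 3 below it. Tnfrsf4 had a UMI in 52.9% of PBS Cd4 cells and in 41.7, 71.4, 58.1 and 64.7% in Decoy 2, 3, 5 and 6. After thinning these shares were 31.25% in PBS and 33.3 to 42.9% in Decoy. Its Cd4 level, scaled by total counts, was 515 CPM in PBS and 614, 209, 274 and 312 CPM in the same order. In Cd8 cells it was 87.7 CPM in PBS and 8.41 to 80.0 CPM in Decoy. The part of the Cd8 share in the fall over all T cells was not tested.

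Globin and haem genes were among the others called lower over all T cells. Hbb-bs was at 5561 CPM in PBS and 8.17 to 207 CPM in Decoy (edgeR adjusted p = 0.0418), and Hba-a2 at 1331 against 11.1 to 71.5 CPM. Cited4 (78.7 against 6.59 to 14.0 CPM), the carbonic anhydrase gene Car2 (715 against 148 to 232 CPM), the haem enzymes Cpox (131 against 35.4 to 51.7 CPM) and Fech (54.1 against 11.1 to 19.8 CPM), Nt5c3 (108 against 40.4 to 49.3 CPM), Cpd (67.9 against 13.2 to 22.3 CPM) and the transferrin receptor gene Tfrc (154 against 46.1 to 51.3 CPM) were called lower in edgeR. Their levels moved with the erythroid marker sum of 12295 CPM in PBS against 219 to 939 CPM, whose part in them was not tested. With cells rich in other markers left out, an alternative added after seeing the data, 13 genes were called, among them Ccl5 (log2 1.32) and Ifi27l2a (log2 1.53).

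In the Cd4 cells, 17 in PBS and 12 to 43 in the Decoy libraries, levels can only be described, scaled by total counts. B2m was at 1430 CPM in PBS and 2424, 2325, 2346 and 2306 CPM in Decoy 2, 3, 5 and 6, and H2-K1 at 1510 CPM and 1928 to 2748 CPM, so that each Decoy library lay above PBS as in Cd8 cells. S100a6 was at 742 CPM against 1165 to 4251 CPM, and S100a4 at 1362 CPM against 1007 to 2719 CPM. In PBS 43.4% of the Cd4 UMIs came from 1 cell.

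The Decoy effect in T cells was last set against that in B cells of the same libraries, by a test of the difference itself. Of 10720 genes 33 differed (0.308%), 2 with the T cell effect higher (0.0187%) and 31 with it lower (0.289%), and without Decoy 3 the count was 5. In B cells alone 4.28% of genes were called higher and 4.36% lower in Decoy. Among interferon and class I genes Ly6c2 was called, and Ly6a, B2m, H2-K1 and Irf7 were not. Ly6a went from 441 to 1201 to 1656 CPM in B cells, a log2 difference between the effects of -0.49 (SE 0.20, edgeR adjusted p = 0.438). The difference was -0.14 (SE 0.15) for B2m, 0.14 (SE 0.14) for H2-K1 and 1.43 (SE 0.70) for Irf7, with edgeR adjusted p-values of 0.531 to 0.813, and these 4 genes were chosen after their values were seen. The T cell effect here pools Cd4 and Cd8 cells (for Ly6a log2 1.16, against 1.67 in B cells). The larger Ly6a change of Cd8 cells alone was not tested against B cells. Immunoglobulin and secretory genes, which antibody-secreting B cells use, were among the separating ones. Ighm, the immunoglobulin mu chain, was at 1002 CPM in PBS B cells and 8164 to 12352 CPM in Decoy B cells, and at 108 CPM and 62.4 to 110 CPM in T cells. The difference of the effects was -3.66 (SE 0.28, edgeR adjusted p = 0.00178), called in 13 of 13 alternatives. Edem1 and Edem2, which act in disposal of misfolded secretory proteins, Ergic1 and Ckap4, of the early secretory pathway, and the linker histone H1f0 had differences of -2.94, -2.15, -3.49, -2.41 and -2.84. Ly6c2 was at 23.1 CPM in PBS and 542 to 924 CPM in Decoy B cells, against 201 and 373 to 706 CPM in T cells (difference -3.72, SE 0.33, edgeR adjusted p = 0.00339). By cells, a Ly6c2 UMI was found in 17.2% of PBS and 33.8 to 43.3% of Decoy T cells, and in 7.21% and 26.1 to 36.1% of B cells. Most Ly6c2 UMIs of the PBS Cd8 cells lay in a single cell, whose part in this difference was not tested.

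Neutrophil genes and the immediate early gene Fos also separated them. S100a8 was at 11.2 CPM in PBS and 458 to 2325 CPM in Decoy B cells, and at 6330 CPM and 2125 to 12505 CPM in T cells (difference -7.18, SE 1.08, edgeR adjusted p = 0.0375), and Chil3 had a difference of -7.60 (SE 1.11, edgeR adjusted p = 0.036). In T cells the 5 cells with most neutrophil marker RNA held at least 97.5% of it. Fos had a difference of -4.68 (SE 0.69, edgeR adjusted p = 0.036). With the purity filter S100a8, Chil3, Fos and Ckap4 turned to a positive difference without passing. Lpin2, a lipid phosphatase gene, went the other way, from 64.1 CPM in PBS to 18.7 to 21.0 CPM in Decoy B cells and from 21.6 to 24.6 to 34.2 CPM in T cells (difference 2.21, SE 0.34, edgeR adjusted p = 0.039). Genes that filled the list of higher T cell effects without being called were Irf2, Apoe, H2-Oa, Xpo7, Slc2a3, Lat, Cpeb4 and Pitpnc1, with edgeR adjusted p-values of 0.0557 to 0.0726. H2-Oa was at 0 in PBS T cells, and the other 7 had differences of 1.07 to 4.65.

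**Figure D5:**
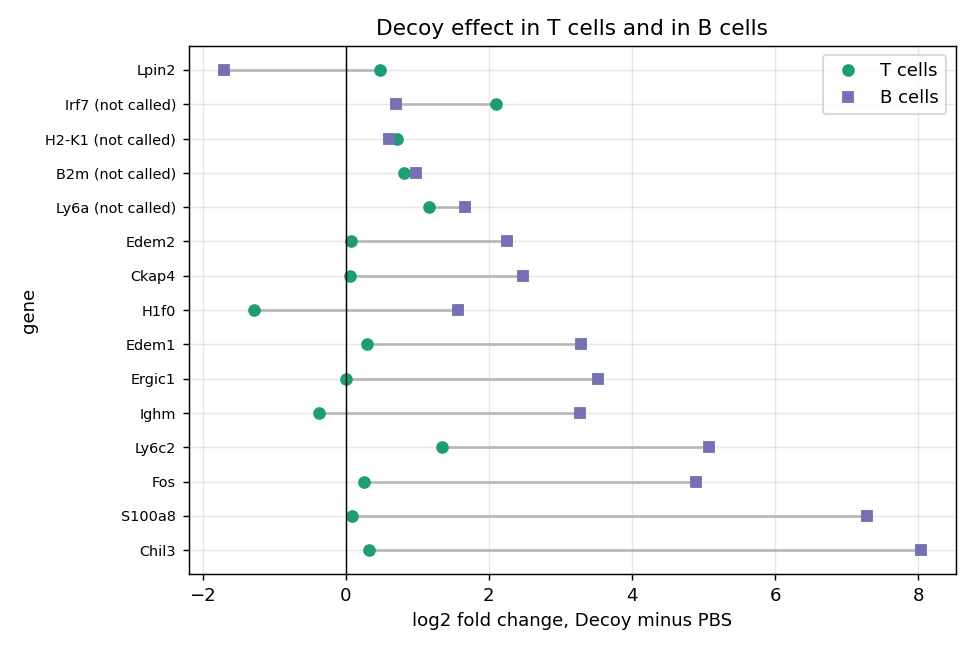
For each gene the circle is the log2 fold change, Decoy minus PBS, in T cells and the square that in B cells, and the grey line is the difference tested. Ighm, Ly6c2, Edem1 and Ergic1 lie at 3.28 to 5.08 in B cells and at -0.38 to 1.35 in T cells, whereas B2m and H2-K1 lie close together at 0.61 to 0.98.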

How the data were processed

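Single-cell RNA libraries (10x Genomics 3′ chemistry) from 1 PBS and 4 Decoy samples were deposited by the authors as raw UMI counts per gene and barcode. Per the file headers the matrices come from Cell Ranger 5.0.0, while the submitters' processing notes name Cell Ranger 3.1, Seurat 4, DESeq2 and mm10. Such counts depend on which barcodes were called cells and on free RNA, and no correction for either was applied here. Deposited barcodes numbered 2454 to 19337 per library, with 56490098 to 579333323 UMIs. No doublet caller was run: leaving out the T cells with the highest 5% of UMIs, or those with over 20 UMIs of 52 other-type markers per 10000, was an alternative.

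Counts were summed per library and cell group and tested with edgeR 4.0.16 (quasi-likelihood, TMM, filterByExpr, R 4.3.3) with Benjamini-Hochberg adjustment at 0.05. A fit of Cd4 or Cd8 cells was run only with at least 20 cells in PBS and in at least 3 Decoy libraries, dropping Decoy libraries below 20. CPM values are counts scaled to the library total and by TMM unless stated. DESeq2 1.42.0 was an alternative. The fits were tested on simulated data. Shares were compared by exact permutation. Members and gene lists were chosen with earlier results of these data known. Named were 36 fixed genes, up to 4 called genes per list and, among called genes at a mean of 20 CPM or more with all Decoy libraries on 1 side of PBS, the 10 that moved most up and the 10 that moved most down. Where under 10 were called, genes with the smallest unadjusted p filled up. Changes of the fixed genes are given for Cd8 cells, and over all T cells for 7 of them chosen after their values were seen. Foxp3, Il2ra and Ifit3 were not tested in Cd8 cells. The 24 gene lists hold 490 genes. Results for a few genes that this rule names are not reported here. Positions are from GENCODE vM21 (mm10).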

Additional observations from a re-analysis of the deposited data

Results flagged for a closer look

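Some Decoy libraries stood apart from the other 3 of their group by Dixon's test, in 5 of 91 groups of values tested, and chance gives about 1 in 20. Decoy 5 was highest for Hba-a2 (106 CPM) and Hba-a1 (213 CPM) in Cd8 T cells, for Tcf7 in Cd8 T cells (52.7 CPM) and for Car2 in all T cells (232 CPM). Decoy 6 was highest for Nt5c3 in all T cells (49.3 CPM).

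For 11 named genes the Decoy effect differed between T and B cells by edgeR's test of the difference (adjusted p under 0.05). The log2 difference, T cell effect minus B cell effect, was 2.21 for Lpin2, -7.60 for Chil3, -7.18 for S100a8, -4.68 for Fos, -3.72 for Ly6c2, -3.66 for Ighm, -3.49 for Ergic1, -2.94 for Edem1, -2.84 for H1f0, -2.41 for Ckap4 and -2.15 for Edem2.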

How the results depend on the processing

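The counts of called genes moved with the settings. Over all T cells (44 genes) they were 136 with DESeq2, 179 with no filter on low counts, 0 with at least 3 Cd3 UMIs, 6 with the purity filter, 10 without the highest 5% of UMIs, 29 after thinning to 2000 UMIs and 13 without cells rich in other markers. In Cd8 cells (34 genes) they were 112 with DESeq2, 172 with no filter, 68 without the highest 5% and 17 after thinning. For T against B cells (33 genes) they were 69 with DESeq2, 12 without TMM, 232 with no filter, 8 with at least 3 Cd3 UMIs, 2 with the purity filter, 19 without the highest 5%, 16 after thinning and 93 without cells rich in other markers. Leaving out 1 Decoy library gave 8 (Decoy 3) to 69 (Decoy 2) over all T cells, 5 (Decoy 3) to 85 (Decoy 2) in Cd8 cells and 5 (Decoy 3) to 76 (Decoy 6) for T against B cells. Of the 26 named calls over all T cells, 5 remained without Decoy 3, 0 with at least 3 Cd3 UMIs, 0 of the 22 tested with the purity filter, 3 without the highest 5% and 4 of 24 without cells rich in other markers. Of the 25 in Cd8 cells, 5 remained without Decoy 3, 17 without the highest 5% and 7 of 17 after thinning. The cause of these changes was not tested.

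Some log2 values changed sign. After thinning Nt5c3 over all T cells was 0.021, and in Cd8 cells Cd247 was -0.26, Klf2 -0.12, Gzma -0.57, Gzmb 0.35 and Pim1 1.19. Without the highest 5% Gzma was -0.35 and Stat3 -0.024. Leaving out 1 Decoy library gave -0.16 to 0.33 for Gzma, -0.059 to 0.093 for Stat3 and -0.025 to 0.26 for Bcl3. For T against B cells the purity filter gave 3.08 for Chil3, 4.98 for S100a8, 3.83 for Fos, 5.09 for Ckap4 and -0.38 for H2-K1. Without cells rich in other markers Ckap4 was 2.45 and H2-K1 -0.26, after thinning Edem2 was 4.604, and without TMM B2m was 0.015. The 4 tested shares kept their direction in every alternative run.

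Thinning and the other-marker limit were chosen after seeing the data. In Cd8 cells the purity filter, the 5% mitochondrial limit and the other-marker limit were not run, since under 20 PBS cells were left, nor was any fit of Cd4 cells (17 in PBS). No paired analysis was possible because there is 1 PBS library and the labels share no replicate numbers between groups. Few cells and 1 PBS library limit the precision of every value.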
